A study of Mus musculus with 8 samples.

Results

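Nuclear RNA of unstressed NIH3T3 cells, a mouse embryonic fibroblast line, was measured in 2 of the 8 libraries of the series, which were chosen by their untreated label. Each library lists a level for the same 48676 rows, most of them gene models, and the rows were ranked by the mean of the libraries. The other 6 libraries come from cells kept for 2 h at 44 °C, in 200 mM KCl or in 0.2 mM H2O2, and they enter no comparison here. All libraries are from 1 line grown with fetal bovine serum to confluency, with no genetic change named in the labels. The labels do not say that the replicates came from separate cultures, so the spread between them may be technical. Nuclei were enriched through a sucrose cushion, the RNA was treated with DNase and depleted of ribosomal RNA, and strand-specific libraries were sequenced.

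RNA is made, spliced and processed in the nucleus, and most messenger RNA then leaves it. Some RNAs stay and work there, among them the small nuclear RNAs of the spliceosome, the small nucleolar RNAs that guide changes to ribosomal RNA, and long RNAs such as Malat1 and Neat1. A nuclear library therefore holds unspliced and newly made transcripts beside RNAs that are never exported. Fibroblasts make the collagens and other proteins of connective tissue, and NIH3T3 cells divide without limit in culture.

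The values are RPKM, sequenced fragments divided by the length of the gene model and by the number mapped in the library. This unit divides by length, so genes of unlike length share a scale. Levels of short rows, and of rows that may share fragments with near-identical copies, are less certain beside other genes. Shares of an RPKM sum are not shares of reads. The columns of replicates 1 and 2 summed to 771673 and 699811 RPKM. Depth is known only as a ratio: among 3154 rows of low level, the most frequent ratio of the values was 1.33 (replicate 2 over replicate 1, 432 rows), and the next were 0.5 and 2 times that. If each such value is 1 fragment, 1 fragment was worth 1.33 times more RPKM in replicate 2, the shallower library. No test was made, since 1 group of 2 libraries allows none, and every difference below is a description of these libraries.

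Of the 48676 rows, 12650 reached 1 RPKM in both libraries, 5806 reached 10, 556 reached 100 and 52 reached 1000. Another 23333 rows, 47.94%, were listed at 0 in both, and an exact 0 can be a failed estimate. Among 20091 names that match a protein-coding gene of GENCODE M21, 9185 (45.72%) reached 1 RPKM in both, with a median of 11.1, and 5426 were listed at 0 in both. The 10 highest rows held 39.12% of the RPKM sum in replicate 1 and 35.73% in replicate 2, and the 100 highest held 57.25% and 57.61%. Within the coding genes the levels were spread more evenly: the 10 highest held 6.87% of coding RPKM, the 100 highest 24.9% and the 1000 highest 58.8%. Receptors of smell and pheromones, genes of sensory neurons, were nearly all below that level: 0 of 1266 olfactory receptor rows and 1 of 451 vomeronasal receptor rows reached 1 RPKM in both.

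For some genes picked from high in the ranking, the bases just before the transcript start are shown here. They belong to S100a4, the highest coding gene, Vim and Atp5b, both among the 20 highest, and Malat1, the highest listed long noncoding RNA. These genes were picked after their levels were known. The sequences are RefSeq's, from mouse build GRCm38.p6, and cover 100 bases that end next to the start, written 5′ to 3′ along the gene. The windows are chr3:90603670-90603769 (plus strand) for S100a4, chr2:13574211-13574310 (plus strand) for Vim, chr19:5802673-5802772 (minus strand) for Malat1 and chr10:128083207-128083306 (plus strand) for Atp5b. Capitals mark 3 motifs or their reverse complements, since each was searched on both strands. The first motif has the letters TATAAA, as in many start sites bound by the TATA-binding protein. The second, the letters CCAAT, is the element bound by NF-Y. The third, the letters GGGCGG, is the core of sites for Sp1. No match overlaps another.
S100a4: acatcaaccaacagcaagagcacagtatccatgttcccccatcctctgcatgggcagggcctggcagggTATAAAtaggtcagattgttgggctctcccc
Vim: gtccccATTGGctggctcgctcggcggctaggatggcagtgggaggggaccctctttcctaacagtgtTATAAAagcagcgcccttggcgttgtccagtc
Malat1: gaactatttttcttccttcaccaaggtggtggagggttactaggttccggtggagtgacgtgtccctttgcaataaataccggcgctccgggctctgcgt
Atp5b: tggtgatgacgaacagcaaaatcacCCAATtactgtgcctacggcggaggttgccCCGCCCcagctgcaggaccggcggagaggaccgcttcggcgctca
The first motif begins at position -31 from the start in S100a4 and at position -32 in Vim. None of the 3 motifs is in the Malat1 window. Over all 32851 windows of this length in the RefSeq table, 5.56% hold the first motif, 18.9% the second and 24.7% the third. A match of letters is not a bound site, and the windows say nothing of which factor acts there.

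The highest rows were not matched to a coding gene by name. AC157822.1, a row named for a genomic clone, was first with 71768 RPKM in replicate 1 and 88701 in replicate 2. AC099934.1, also a clone row, followed with 70154 and 86735. The third clone row, AC113316.1, did not hold its place: it measured 81713 RPKM in replicate 1 and 8797 in replicate 2. These 3 rows alone held 28.98% and 26.33% of the RPKM sums. The sources used here do not annotate them or the sixth row, AK219219, at 18223 and 8021 RPKM.

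The structural RNAs of the nucleus came next. 7SK, the RNA that holds the elongation kinase P-TEFb inactive, measured 18854 and 17112 RPKM in replicates 1 and 2 in its highest row, and 3 further rows of that name exceeded 700 RPKM in both. Snora73a and Snora73b are small nucleolar RNAs of the box H/ACA kind, the class that guides pseudouridine formation. The former measured 16539 and 17560 RPKM and the latter 8058 and 6764. U2, which pairs with the branch point of introns, reached 5296 and 5486 RPKM. U4, the partner of U6 in the spliceosome before activation, reached 5600 and 4764. U1, which pairs with the 5′ splice site, was at 1525 and 2010 RPKM in its highest row. U3, which takes part in cutting the ribosomal RNA precursor, stood higher in replicate 2 in each of its 4 highest rows, 3294 against 6515 RPKM in the first of them. Rprl3, annotated as a ribozyme, measured 3137 and 3906 RPKM, and Terc, the RNA template of telomerase, was at 20.1 and 21.02.

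Together 4838 rows of short RNAs held 21.4% of the RPKM sum in replicate 1 and 26% in replicate 2, but 368 of them reached 1 RPKM in both. Many share a name (940 rows are called U6) or have near-identical copies, so the division of fragments among them is uncertain. Of 80 rows at 0 in 1 library and at least 5 RPKM in the other, 61 were short RNA rows and 0 were coding. RPKM divides by length, so few fragments make a high value on a short row, and this count does not rank classes by repeatability. Among the microRNA precursor rows Mir6236 differed widely, with 826 RPKM in replicate 1 and 41.6 in replicate 2. Mir3084-1 did not, at 137 and 149 RPKM.

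**Figure D1:**
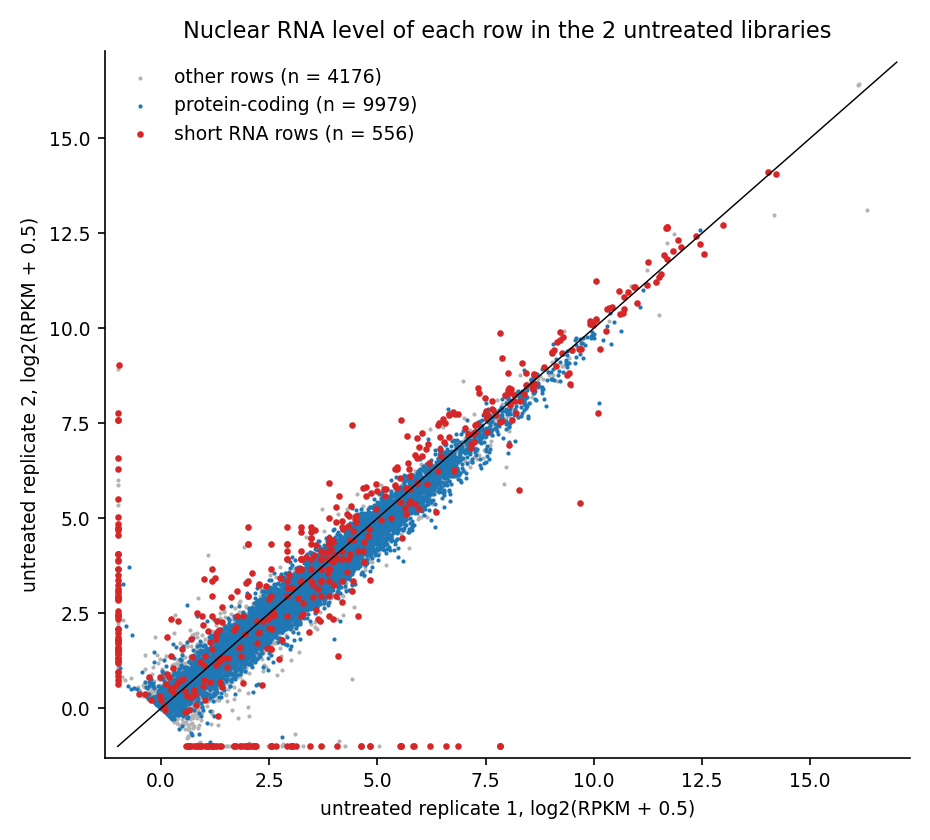
Level of each row in replicate 1 (horizontal axis) and replicate 2 (vertical axis), both as log2(RPKM + 0.5), for rows with a mean of at least 0.5 RPKM. Coding rows (blue) lie in a narrow band along the line of equal values, while short RNA rows (red) hold many of the points on the edges, where 1 library is listed at 0.

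The listed long noncoding RNAs differed widely in level. Malat1, the RNA of nuclear speckles, measured 1844 RPKM in replicate 1 and 2228 in replicate 2 and was 33rd of all rows. Neat1, the scaffold of paraspeckles, was far lower at 33.5 and 58.0 RPKM. Both were higher in replicate 2. Pvt1, a neighbour of the Myc gene, measured 24.9 and 22.4 RPKM, Tug1 16.5 and 15.7, and Norad, which binds Pumilio proteins, 13.5 and 11.98. Of the 21 listed long noncoding RNAs with a row, 9 reached 1 RPKM in both libraries and 12 were under 1 in both. Xist, the RNA that coats the inactive X chromosome, was among the low ones at 0.00608 and 0.0398 RPKM. Meg3, H19, Airn, Hottip and Rmst were listed at 0 in both.

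Host genes carry small nucleolar RNAs in their introns, and 17 of 18 with a row reached 1 RPKM in both libraries. Gas5, whose spliced product is a short-lived noncoding RNA, was highest at 625 and 511 RPKM. Zfas1 measured 284 and 230 RPKM and Snhg1 236 and 201, both noncoding. The coding hosts Eif4a2, a helicase of translation initiation, and Nop56, a protein of the box C/D particles, were at 269 and 266 and at 237 and 210 RPKM. Snhg11 was the exception, at 0.0327 and 0.0527. A host row may take up fragments of the small RNA inside it, and the counting rule is not given in the sources used here.

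Among coding genes S100a4, a calcium-binding protein also called fibroblast-specific protein, was first, at 5643 RPKM in replicate 1 and 6096 in replicate 2 (mean 5870 ± 321, SD, n = 2). It was 8th of all rows and stood well above Lgals1, the secreted lectin galectin-1, at 2249 and 2050 RPKM. Its relative S100a6 measured 912 and 867. With mt-Co3, a mitochondrial gene described further on, set aside, Ctsl, the lysosomal protease cathepsin L, followed at 1327 and 1349 RPKM. Spp1, the secreted matrix protein osteopontin, was at 1007 and 913. Rack1, a scaffold on the small ribosomal subunit, measured 868 and 864 RPKM. The spread between the libraries was under 10% of the mean in S100a4, Lgals1, S100a6, Ctsl, Spp1 and Rack1. Gnb2l1, an older symbol of Rack1, has a row of its own at 197 and 131 RPKM, so that gene's fragments were divided.

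Markers of fibroblasts were read beside the label. This list and those of other cell types were chosen with earlier results of these data known, so they do not test the label. Of 32 listed, 24 reached 1 RPKM in both libraries, beside 45.72% of all coding genes. Vim, the intermediate filament protein of mesenchymal cells, measured 1589 RPKM in replicate 1 and 979 in replicate 2. Col1a2, a chain of type I collagen, was at 659 and 549 RPKM, and its partner Col1a1 was lower at 101 and 78.5. Fn1, the matrix protein fibronectin, reached 405 and 276. Itgb1, the beta-1 integrin that binds it, was at 218 and 220. The transcription factors Prrx1, at 15.7 and 17.6 RPKM, and Twist2, at 17.9 and 16.4, mark mesenchyme. Some usual surface markers were low or missing: Thy1 measured 2.05 and 0.732 RPKM, and Pdgfrb, a receptor of platelet-derived growth factor, 0.951 and 1.11. Pdgfra, the other receptor of that family, was at 9.52 and 10.7. Fap, Tcf21 and Nt5e were listed at 0 in both.

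Markers of other cell types were at or near 0. Of 61, 55 were under 1 RPKM in both libraries, 22 of them at 0 in both, and 5 reached 1 in both. Those 5 were Cd68, a lysosomal protein of macrophages, at 28.6 and 16.9 RPKM, Des at 4.43 and 3.69, Hba-a1 at 1.71 and 2.51, Tnnt2 at 1.85 and 1.51, and Nkx2-5 at 1.78 and 1.01. Of the blood markers 8 of 10, and of the muscle markers 6 of 9, were under 1 RPKM in both. Ptprc, the common leukocyte antigen, measured 0.0780 and 0.0749 RPKM, and the muscle regulators Myod1 and Myog were listed at 0. The summed level of the 10 blood markers was 31.2 and 20.3 RPKM, that of the 9 muscle markers 8.35 and 6.26. The 10 epithelial markers summed to 1.17 and 1.44 RPKM, the 7 endothelial to 1.26 and 1.03, the 10 neural to 0.174 and 0.191, the 8 fat and liver markers to 0.716 and 0.600, and the 7 of pluripotent cells to 0.0319 and 0.0219. In bulk RNA, few cells of a type and little RNA per cell cannot be told apart.

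**Figure D2:**
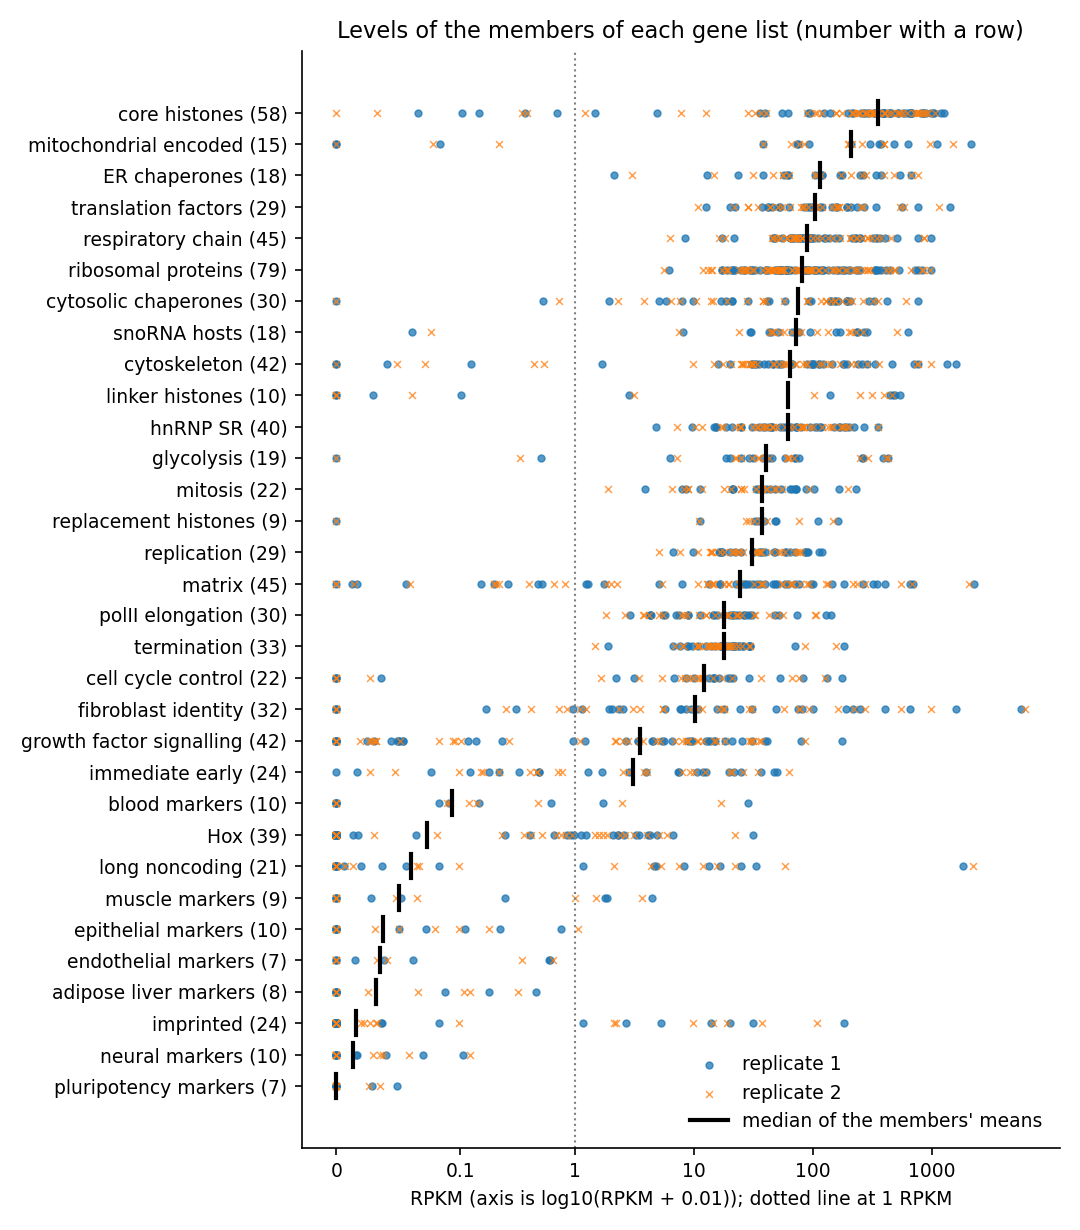
RPKM of every member of 32 gene lists in replicate 1 (circles) and replicate 2 (crosses), on an axis of log10(RPKM + 0.01). Black bars are the medians of the members' means. Core histones have the highest median, 351 RPKM, and the marker lists of other cell types lie mostly below the dotted line at 1 RPKM. In both libraries, 3 of 9 muscle markers and 2 of 10 blood markers reached that level.

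Matrix genes followed the fibroblast pattern with gaps. Of 45, 35 reached 1 RPKM in both libraries, 7 reached 100, and the median of their means was 24.7 RPKM. After Lgals1 the highest were P4hb, a subunit of the collagen prolyl hydroxylase, at 700 and 686 RPKM, Col1a2, Fn1, and Serpinh1, the collagen chaperone HSP47, at 343 and 237. The lowest were Eln, which encodes elastin, at 0.00492 and 0, Nid2, a basement membrane protein, at 0 and 0.00413, and Col11a1, a cartilage collagen, at 0.00345 and 0 RPKM. In the cytoskeleton list 37 of 42 reached 1 RPKM in both, with a median of 64.8. Actb, cytoplasmic actin, measured 1351 and 765 RPKM. Ahnak, a giant scaffold protein, was at 768 and 748, Tubb5, a beta-tubulin, at 710 and 358, and Lmna, the nuclear lamin A/C gene, at 463 and 284. Tagln and Cnn1, contractile proteins of smooth muscle, were at 0.0167 and 0.0221 and at 0.126 and 0.0459 RPKM, and Myl9 was listed at 0.

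The replication-dependent core histone genes were the highest group. Their messages end in a stem-loop in place of a poly(A) tail, and ribosomal RNA depletion does not select for a tail. Of 58, 53 reached 1 RPKM in both libraries and 45 reached 100. Hist2h2bb, an H2B gene, measured 1275 RPKM in replicate 1 and 1059 in replicate 2. Copies of H4 filled the next places, Hist1h4d at 1191 and 831, Hist1h4f at 1033 and 928, Hist1h4a at 1023 and 859 and Hist1h4i at 980 and 895 RPKM. The histone copies are near-identical in sequence, so how the authors' counting divided fragments between them is uncertain. Not all copies were present: Hist1h2aa was at 0.147 and 0.390 RPKM and Hist3h2ba at 0.0380 and 0. Among the linker histones Hist1h1b, Hist1h1d, Hist1h1c and Hist1h1e, which are made in dividing cells, lay between 248 and 540 RPKM. H1f0, the form common in resting cells, was at 140 and 103. H1foo, made in oocytes, was at 0 and 0.0330. The replacement histone H3f3b measured 162 and 148 RPKM and H3f3a, which encodes the same protein, 11.3 and 11.1.

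All 79 ribosomal protein genes reached 1 RPKM in both libraries, with a median of 81.5, but they did not share a level. Rpl8 measured 991 RPKM in replicate 1 and 965 in replicate 2, and Rps9 759 and 821. At the other end were Rpl17 at 6.2 and 5.67 RPKM and Rpl38 at 17.2 and 13.9. Levels on these rows are uncertain, because rows named as pseudogenes held part of the signal. There were 151 such rows for 51 of the genes, and they held 31.8% and 30.9% of the RPKM of ribosomal protein and pseudogene rows together. For 25 of the 51 genes the pseudogene rows together exceeded the gene's own row. Rpl38-ps2 measured 859 and 777 RPKM beside the low Rpl38. The pseudogene rows of Rpl3 summed to 400 and 390 RPKM beside 48.3 and 43.9 on Rpl3 itself.

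Translation factors stood in the same range, all 29 at 1 RPKM or more in both libraries and a median of 104. Eef1a1, which brings transfer RNA to the ribosome, was highest at 1414 and 1152 RPKM. Eef2, which moves the ribosome along the message, measured 759 and 539, and Eef1b2 563 and 581. Eif4e, the cap-binding protein, was the lowest at 12.7 and 10.9.

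RNA encoded in mitochondria was present in the nuclear fraction. Of 15 listed mitochondrial genes, 12 reached 1 RPKM in both libraries. mt-Co3, a subunit of cytochrome oxidase, measured 2149 RPKM in replicate 1 and 1499 in replicate 2. mt-Rnr2, the large mitochondrial ribosomal RNA, was higher in replicate 2, at 635 and 967 RPKM, and mt-Co1, another oxidase subunit, lower, at 1109 and 261. mt-Nd6 and mt-Atp8, listed at 4.82e-07 and 9.84e-07 and at 2.46e-06 and 0.0546 RPKM, overlap or adjoin other mitochondrial genes, so their share of the fragments is uncertain. The nuclear genes of the respiratory chain all passed 1 RPKM, 45 of 45, with a median of 88.9. Atp5b, the catalytic subunit of ATP synthase, was highest at 979 and 864 RPKM, then Cox4i1, a subunit of cytochrome oxidase, at 768 and 863, and Ndufa4 at 515 and 457.

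Chaperones of the constitutive kind were abundant in the untreated cells. Hsp90ab1, the constitutive cytosolic HSP90, measured 767 and 610 RPKM in replicates 1 and 2. Cct5 and Tcp1, subunits of the chaperonin that folds actin and tubulin, were at 419 and 351 and at 330 and 318. Hspd1, the mitochondrial chaperonin, was at 295 and 267. The heat-inducible Hspa1a was near the bottom of its list at 1.92 and 2.32 RPKM, and Hspb1 was listed at 0 in both. Few genes of that list were so low: of 30, 28 reached 1 RPKM in both and 22 reached 10. Its heat-inducible members were not all low. Hspa1b was at 5.85 and 6.41 RPKM, but Hsp90aa1 measured 92.1 and 92.0 and Dnajb1 28.7 and 18.9. In the endoplasmic reticulum, Calr and Canx, which bind sugar-bearing proteins, measured 667 and 674 and 371 and 397 RPKM. Hspa5, the HSP70 of that compartment, was higher in replicate 2, 535 against 772 RPKM, as was its HSP90, Hsp90b1, at 337 and 479. Of the glycolysis list, 17 of 19 passed 1 RPKM in both. Pkm, pyruvate kinase, is listed under its older symbol Pkm2 at 429 and 428 RPKM and under Pkm at 96.0 and 125. Ldha, which makes lactate, measured 391 and 413, and the lactate carrier Slc16a3 was listed at 0.

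Genes of DNA replication and cell division were expressed. All 29 replication genes and all 22 mitosis genes reached 1 RPKM in both. Top2a, the topoisomerase of dividing cells, measured 230 and 200 RPKM, Cdk1, the mitotic kinase, 165 and 93.6, and Cdc20, which activates the anaphase complex, 102 and 49.3. Rrm1, a subunit of ribonucleotide reductase, was at 120 and 73.2 RPKM, and Pcna, the sliding clamp, at 90.1 and 76.7. Among regulators of the cycle, Cdk4 measured 177 and 128 RPKM, its partner cyclin D1 (Ccnd1) 132 and 66.7, and Trp53 20.2 and 10.9. The inhibitor genes Cdkn2a and Cdkn2b were listed at 0 in both, and NIH3T3 cells are known to have lost that locus. Mycn was also at 0, while Myc measured 19.3 and 11.6 RPKM.

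Machinery that makes and ends transcripts was present throughout and at modest levels. All 30 genes of RNA polymerase II and elongation reached 1 RPKM in both, with a median of 18, and so did all 33 of cleavage, termination and the Integrator complex, also with a median of 18. Ssrp1, a subunit of the histone chaperone FACT, led the first list at 141 and 106 RPKM, and Polr2f, a polymerase subunit, followed at 130 and 105. Xrn2, the nuclease that degrades RNA behind the cleavage site, measured 71.5 and 86.0. Ints9, a subunit of Integrator, was lowest of the second list at 1.89 and 1.47. The 40 RNA-binding genes of the hnRNP and SR kinds also all passed, with a median of 61.4 RPKM. Ddx5, an RNA helicase, was highest at 350 and 354, and Srsf1 and Srsf2, SR splicing factors, measured 188 and 183 and 221 and 147.

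The immediate early genes, which respond to serum and stress within minutes, were split. Of 24, 13 reached 1 RPKM in both libraries, beside 45.72% of all coding genes, and 9 were under 1 in both. Ier3 measured 49.6 and 62.8 RPKM, Jund 47.0 and 34.9 and Ier5 37.0 and 25.8. Fosb was at 0.0517 and 0.0973, Nr4a3 at 0.00488 and 0.0212, and Atf3 at 0 and 0.00924. Of 42 genes of growth factor signalling 25 reached 1 RPKM in both. Axl, a receptor kinase, was highest at 176 and 86.6 RPKM, and Csf1, the macrophage growth factor, came next at 80.4 and 36.7. Fgfr1, at 31.2 and 29.4, was present where Fgfr2, Kit and Kdr were listed at 0.

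Imprinted genes, which are expressed from 1 parental copy, were mostly low: 7 of 24 reached 1 RPKM in both, 17 were under 1 in both and 10 of these were listed at 0 in both. Gnas, a G protein subunit, measured 182 and 108 RPKM, Impact 31.4 and 37.7, Grb10, an adaptor that restrains growth signals, 20.1 and 19, Slc38a4 14 and 14.4, and Peg3 5.33 and 9.87. Ndn, Phlda2 and Nnat were listed at 0, as were H19 and Meg3 above.

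Hox genes set position along the body axis, and cultured cells often keep part of their pattern. Of 39 rows, 11 reached 1 RPKM in both libraries. Hoxd8 stood apart at 31.5 RPKM in replicate 1 and 22.3 in replicate 2. The next were Hoxa7 at 6.73 and 5.07, Hoxa3 at 4.15 and 5.99, Hoxa6 at 4.95 and 4.05, and Hoxd3 at 4.27 and 3.11. The order of these 4 was not the same in both libraries. By cluster, 5 of 11 Hoxa genes, 1 of 10 Hoxb, 1 of 9 Hoxc and 4 of 9 Hoxd reached the level. By paralog group it was 3 of 8 genes in groups 1 to 3, 6 of 12 in groups 4 to 7, 2 of 10 in groups 8 to 10, and 0 of 9 in groups 11 to 13, where 8 of 9 were listed at 0 in both. Hoxd8 lies between Hoxd4, at 2.08 and 1.85 RPKM, and Hoxd9, at 2.32 and 1.46. Genes of a cluster lie close together and overlap other transcripts, and the strand that was counted is not given in the sources used here.

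**Figure D3:**
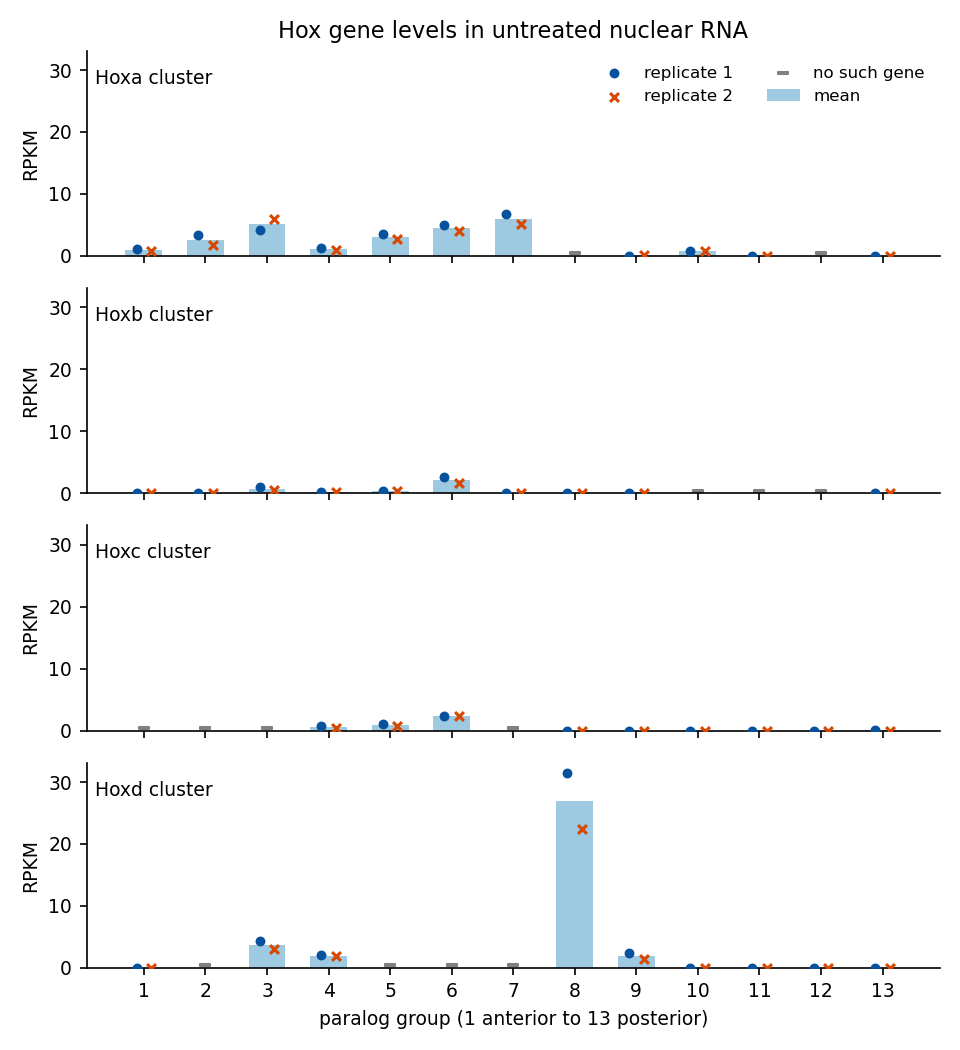
RPKM of the Hox genes in untreated nuclear RNA, 1 panel per cluster, by paralog group from anterior (1) to posterior (13). Bars are means of replicates 1 (circle) and 2 (cross), and grey dashes mark groups with no gene in that cluster. Hoxd8 stands at 31.5 and 22.3 RPKM and groups 11 to 13 at or near 0.

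The repeatability of the levels was measured on log2(RPKM + 0.5) over rows with a mean of at least 0.5 RPKM, a scale that understates differences of low rows. Over 14711 rows, which share their libraries and are not independent, Pearson's r between the libraries was 0.948 and Spearman's rho 0.955. Over 9896 coding genes both were 0.979. The median difference, replicate 2 minus replicate 1, was -0.15 for coding genes, with an SD of 0.37. In the 6966 coding genes with a mean of at least 5 RPKM, the median fold between the libraries was 1.18, and 95% of genes differed by 1.65-fold or less. The SD of coding genes fell from 0.49 between 0.5 and 1 RPKM to 0.31 between 10 and 50 RPKM.

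At least 2-fold higher in replicate 2 were 251 of the 14711 rows (1.71%), and at least 2-fold lower 346 (2.35%). This split depends on the scale: it was 305 against 273 after the columns were scaled to a common sum, and 309 against 268 after scaling by the median ratio. Of the 9896 coding genes, 36 (0.364%) were 2-fold higher and 104 (1.05%) 2-fold lower. Scaling to a common sum adds 0.14, and scaling by the median ratio 0.16, to the log2 difference of rows well above 0.5 RPKM, and less to that of rows near 0.

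The largest coding differences, among genes with a mean of at least 5 RPKM, had the following values. Lower in replicate 2 were Rsrp1 (15.6 and 3.02 RPKM), mt-Co1, Lars2, a mitochondrial leucyl-tRNA synthetase (17.1 and 4.46), Ube2c, a ubiquitin enzyme of mitosis (47.8 and 14.3), and Txnip, an inhibitor of thioredoxin induced by glucose (79.8 and 27.0). Higher were Hist2h3c1, a copy of histone H3 (0.104 and 12.8), Idh1, the cytosolic isocitrate dehydrogenase (99.2 and 232), Mtm1, a phosphoinositide phosphatase (3.49 and 7.64), Casp4, an inflammatory caspase (4.12 and 8.55) and Zfp53, a zinc finger gene (5.57 and 11.3). Hist2h3c1 has near-identical copies, which leaves its share of fragments uncertain.

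Some gene groups lay mostly to 1 side, and so did coding genes as a whole. Of coding genes of at least 5 RPKM, 19.1% to 40.8% were higher in replicate 2, depending on gene span. The 38 cytoskeleton genes past the filter on low values were all lower in replicate 2, with a median difference of -0.68 against -0.15 for coding genes, and 36 of the 38 lay below that coding median. Actb, at -0.82, and Tubb5, at -0.99, are examples. Of the 38, 3 were at least 2-fold lower, beside 1.05% of all coding genes. Of 22 mitosis genes 21 were lower, the median was -0.75, 19 lay below the coding median, and 3 were at least 2-fold lower. Of 29 replication genes 27 were lower, with a median of -0.42. The matrix genes were more mixed: of 37 genes 27 were lower and 10 higher in replicate 2, a share within the range of coding genes. Their median was -0.44, 25 lay below the coding median, and 5 were at least 2-fold lower. The medians of these 4 lists stay below 0 when 0.14 or 0.16 is added. Further lists also lay mostly lower, among them core histones (51 of 55, median -0.27) and immediate early genes (12 of 15, -0.42). So did cell cycle control (16 of 18, -0.401), Hox genes (15 of 17, -0.33) and linker histones (5 of 6, -0.44). What set the libraries apart in these lists was not tested.

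Other groups stayed near the line or lay above it. The 79 ribosomal protein genes had a median of -0.14 and the 45 respiratory chain genes -0.10, and both come to about 0 or above under either scaling. The 18 chaperones of the endoplasmic reticulum had a median of 0.08, with 14 of them higher in replicate 2 and 1 below the coding median. The 17 glycolysis genes past the filter had a median of 0.07. Outside the coding genes, rows of small nucleolar RNAs had a median of 0.22 and those of spliceosomal RNAs 0.26, with SDs of 2.17 and 1.57. These counts are descriptions of 2 libraries, and the groups share columns with all other rows.

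**Figure D4:**
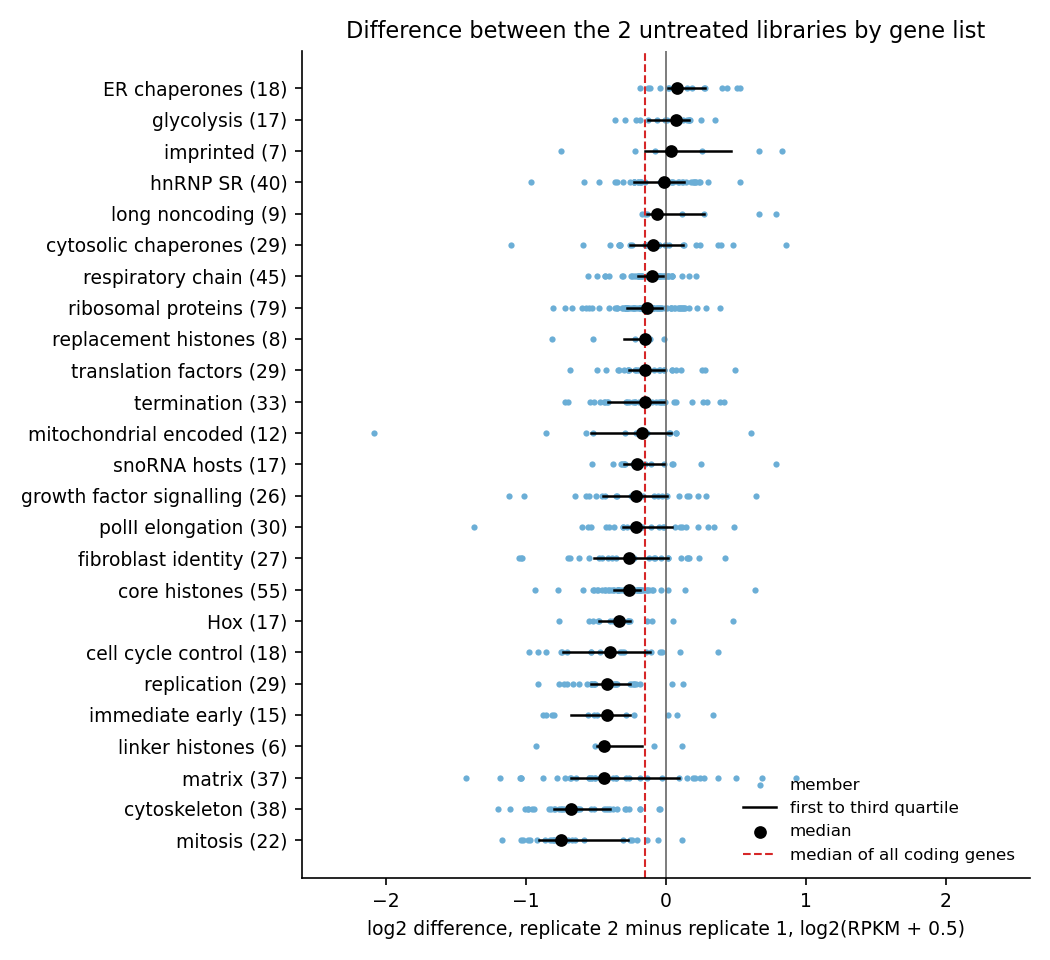
Difference between the libraries, log2(RPKM + 0.5) of replicate 2 minus replicate 1, for members with a mean of at least 0.5 RPKM of the lists that have 5 or more such members. Points are genes (Hist2h3c1, at 4.46, lies off the axis), black dots medians, black lines the quartiles, and the dashed line the median of coding genes, -0.15. Of the lists shown, mitosis and cytoskeleton have the lowest medians and chaperones of the endoplasmic reticulum the highest.

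Level and difference also went with the structure of the gene, taken from GENCODE M21. Coding genes of 100 RPKM or more were short, with a median span of 8.75 kb over 376 genes, against 22.5 kb for 4605 genes between 10 and 100 RPKM and 26.9 kb for 4349 genes between 1 and 10. Of the genes at 100 RPKM or more, 16.2% have a single exon, against 1.59% and 2.05% in those next classes, 5.14% of genes above 0 but under 1 RPKM and 10.9% of those listed at 0 in both. The histone genes, such as Hist1h4d and Hist2h2bb, have 1 exon and belong to that class. Genes listed at 0 in both were also short, with a median span of 8.15 kb over 5426 genes. The difference between the libraries followed span: with the 6966 coding genes of at least 5 RPKM cut by span into 4 equal bins, the median from the shortest bin to the longest was -0.24, -0.20, -0.15 and -0.08. The share of genes higher in replicate 2 rose from 19.1% to 40.8%. Across these genes Spearman's rho of difference and span was 0.203, that with exonic length 0.182 and that with mean level -0.08, all over points from the same pair of libraries. After scaling the first bin stays below 0 and the last lies above it.

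**Figure D5:**
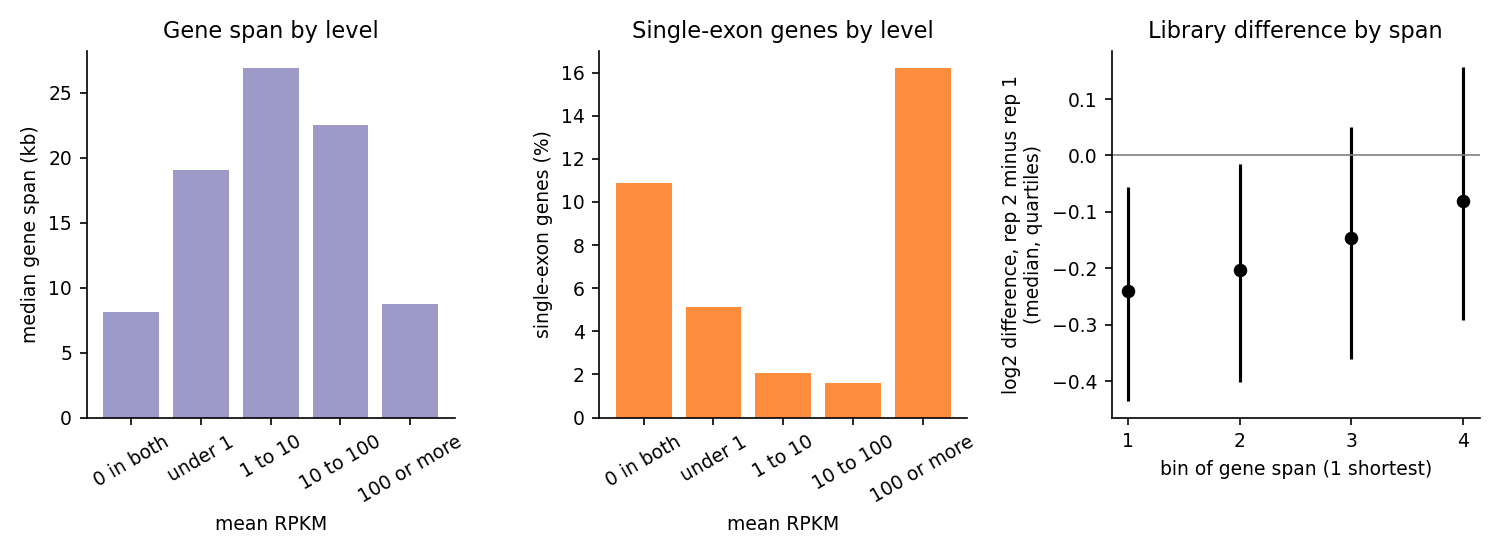
Median gene span (left, kb) and share of single-exon genes (middle, %) of coding genes by mean RPKM, and the difference between the libraries in 4 equal bins of gene span (right, medians with quartiles, log2(RPKM + 0.5), replicate 2 minus replicate 1). Genes at 100 RPKM or more are short and 16.2% have a single exon, and the median difference goes from -0.24 in the shortest bin to -0.08 in the longest.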

How the data were processed

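Nuclear-enriched RNA of NIH3T3 cells was profiled in 8 libraries, and the 2 untreated ones are reported. Reads were handled with Bowtie, SAMtools and Cufflinks on mouse build mm9, per the submitters' processing notes. Versions, the gene annotation, filters and the counted strand were not given in the sources used here. In 1 table per replicate the authors deposited RPKM values, so named per the file headers, with 0 columns left unmatched. No counts were used and depth is known only as a ratio, so no counting intervals are given.

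Columns were taken as deposited with Python 3.11.15, pandas 2.3.3, numpy 2.4.6 and scipy 1.17.1. Differences are of log2(RPKM + 0.5) over rows with a mean of at least 0.5 RPKM. Where a name has several rows (5112 rows share one), the highest was used. Coding genes, spans and exons come from GENCODE M21, matched by name. The script for the difference was tested on simulated data. Genes named are the 10 highest rows, the 20 highest coding genes, up to 5 highest and 3 lowest members of each of 32 lists (any member of the marker, Hox, cell cycle control and long noncoding lists), the 5 largest library differences each way and the 5 highest rows of each short RNA class. Terc, U1, Hspa1b, Hsp90aa1, Dnajb1 and the genes picked to illustrate a count or a split row lie outside that rule. They were chosen after their values were seen. Some genes that the rule names are not reported here. The lists and their members were chosen with earlier results of these data known. RefSeq promoter windows matched 76.8% of coding genes, under the minimum of 80%, so a comparison of windows between levels was void and is not given. Alternatives were other pseudocounts, filters, scalings, row rules and leaving out a replicate.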

Additional observations from a re-analysis of the deposited data

How the results depend on the processing

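No paired analysis was possible because there is 1 group and no result comes from a test. With a pseudocount of 0.1 RPKM, a pseudocount of 1 RPKM, no filter, a mean of at least 5 RPKM, and coding genes alone, the correlation (0.948 as reported over all rows) was 0.915, 0.957, 0.985, 0.913 and 0.979. The median difference (-0.137) was -0.148, -0.124, 0, -0.163 and -0.148 in the same order, and the SD (0.65) was 0.906, 0.548, 0.377, 0.639 and 0.366. Rows differing at least 2-fold (597) numbered 229 at a mean of at least 5 RPKM and 140 among coding genes (an alternative chosen after seeing the data), settings under which fewer rows were counted. They were 825 and 488 with pseudocounts of 0.1 and 1, and 578 and 577 after the scalings. The share of the 100 highest rows (57.4%) was 53.3% without short RNA rows and 57.3% to 57.8% with 1 library left out. Rows at the detection level (12650) ranged from 11096 to 14002 over minimums of 2 and 0.5 RPKM, and from 13080 to 13197 with 1 library left out. Of 32 list medians, 5 moved by more than the spread between replicates without replicate 1 and 4 without replicate 2, and 0 under a common sum or with the rows of a name summed. With 2 libraries, leaving out 1 shifts a mean by less than this spread. The lists that did not move when a replicate was left out therefore say nothing of stability. Of the 20 highest coding genes, 18 stayed among the 20 highest in replicate 1 alone and 17 in replicate 2 alone.

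With 1 library on either side, no difference here has a replicate check, and the cause of each shift was not tested. Depth is known only as a ratio, so no limit of detection in RPKM can be given. The SD between the libraries was larger in low coding genes, 0.492 between 0.5 and 1 RPKM against 0.314 between 10 and 50. Values above 0 but under 0.001 RPKM stand in 1219 and 1218 rows, and no difference is read from them.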

Other observations

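Some rows of RNAs that every cell is known to need were listed at or near 0. Rmrp and the row named RNase_MRP, the RNA of an enzyme that cuts ribosomal RNA precursors, were listed at 0 in both untreated libraries. Rpph1, the RNA of RNase P, was at 4.00 and 0.000710 RPKM in its higher row. A 0 on such a row is therefore not evidence that the RNA is missing.

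The tables also carry 16 names that a spreadsheet has read as dates, 6 of them at 1 RPKM or more, and these rows are not assigned to genes here.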
